A study of Mus musculus with 23 samples.

Results

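The 10 genes described here are 7 secreted antagonists of Wnt signalling (*Sfrp1*, *Sfrp2*, *Sfrp5*, *Frzb*, *Dkk2*, *Dkk3* and *Wif1*) and 3 genes known as readouts of the pathway (*Axin2*, *Lef1* and *Nkd1*), out of 18194 genes measured. They were chosen by name, and every probe set annotated to 1 of these symbols alone was taken, which gave 22 of the 45101 probe sets of the array. All 10 genes were present in the table of genes.

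Wnt ligands are secreted proteins that bind Frizzled receptors together with LRP co-receptors. In the canonical branch this binding stabilises β-catenin, which enters the nucleus and activates target genes through TCF/LEF factors. Secreted Frizzled-related proteins, Frzb and Wif1 bind the ligands themselves, whereas Dickkopf proteins act at the LRP co-receptors. Wnt and sonic hedgehog (SHH) signalling mark different subgroups of medulloblastoma (MB), and granule neuron precursors (GNPs), the dividing cells from which SHH MB arises, respond to SHH.

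RNA levels came from 23 Affymetrix whole-genome mouse arrays, with 1 array per sample. The labels give CD1 as the strain of every sample, whereas the study's methods give C57BL/6N for the mice transfected as neonates. The CRISPR-Ptch1 tumours carried somatic disruption of *Ptch1* by Cas9 and a guide RNA. In 2 cases these were delivered to the embryonic cerebellum by *in utero* electroporation of wild-type mice (EP). In 1 case they were delivered by transfection of the neonatal cerebellum (TF), for which the study's results give *Trp53*-/- mice. Ptc+/- tumours (n = 4) arose in mice with germline disruption of 1 *Ptch1* allele, MERP tumours (n = 5) after postnatal loss of *Ptch1* in *Math1*-expressing cells, and GTML tumours (n = 4) from an overexpressed *Mycn* oncogene. Non-neoplastic references were GNPs isolated between postnatal days 4 and 7 (n = 3) and adult cerebellum (n = 4). Tumour ages were not given in the sources used here, nor was it said whether GNP samples were pooled from several animals. By the study's account the 3 CRISPR-Ptch1 tumours it sequenced, 2 EP and 1 TF, each held a mixture of *Ptch1* alleles. The study's list of mice places all 3 among the tumours it profiled on arrays. The sample titles do not say whether they are the 3 tumours analysed here. The CRISPR-Ptch1 tumours were taken as 1 group of 3 arrays unless EP and TF are named. Delivery, age at targeting, *Trp53* status and possibly strain therefore cannot be told apart in them. Only some of the CRISPR-Ptch1 tumours that the study describes were analysed here.

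Values are log2 levels after robust multi-array averaging (RMA), which corrects background, equalises the arrays and summarises the probes of a set. Where a gene had several probe sets, the brightest by its mean across arrays stood for it. A difference was called when its adjusted p in limma, fitted on all genes and adjusted by the Benjamini-Hochberg method over them, was under 0.05. Levels are compared between groups of 1 gene, never between genes, since probe sets differ in brightness. The lower quartile of all probe sets lay at 4.4 to 4.61 depending on the array, and a level at or under this range was read as near background, where a difference is a lower limit. In bulk RNA, fewer cells of a type and less RNA per cell cannot be told apart.

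Several facts of the arrays bear on the results. *Ptch1* itself read 12.78 to 13.09 in CRISPR-Ptch1 tumours and 11.67 to 12.04 in GNPs, but where its probes lie relative to the targeted exon and the deletions was not examined, so this level checks nothing. The 10 markers of granule precursors, such as *Atoh1* and *Pax6*, averaged 10.99 to 11.43 on the arrays of the 3 Ptch1 models and 11.21 to 11.28 in GNPs, against 7.41 to 8.06 in GTML tumours and 7.48 to 7.82 in adult cerebellum. GNP arrays had the highest mean levels of the marker lists of other cells around the cerebellum, with 10.04 to 10.30 for meninges and fibroblasts (highest elsewhere 8.45), 9.44 to 10.04 for endothelial cells and pericytes (8.27) and 9.41 to 10.26 for choroid plexus (8.34). None of the 9 meningeal, 10 vascular or 6 choroid plexus markers was near background in GNPs. CRISPR-Ptch1 arrays had more of other markers than the other Ptch1 models. Their 8 microglial markers averaged 8.47 to 9.81 (Ptc+/- 6.41 to 8.31, MERP 7.04 to 7.82) and their 7 Purkinje cell markers 8.04 to 10.55 (Ptc+/- 4.86 to 5.75, MERP 5.41 to 5.81). The 3' minus 5' log2 level of the *Gapdh* control probes, a measure of RNA integrity that rises as RNA shortens, was -0.08 to -0.02 in CRISPR-Ptch1 tumours and 0.03 to 0.23 in GNPs, against 0.81 to 1.34 in Ptc+/- and 0.58 to 0.87 in GTML tumours, with 0.09 to 1.48 in MERP. The part of these differences in the results below was not tested, except where stated.

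Upstream sequence is shown for 3 members with large differences between models and a window in the reference, with windows of 250 bases before 1 annotated RefSeq start site of each (GRCm38.p6, plus strand). They lie at chr3:83766071-83766320 for *Sfrp2*, chr8:88527383-88527632 for *Nkd1* and chr10:121033754-121034003 for *Wif1*. The RefSeq spans of *Sfrp2* and *Nkd1* begin before these windows, so the windows sit at a later start site of the same gene. Capitals mark CG dinucleotides.
Sfrp2: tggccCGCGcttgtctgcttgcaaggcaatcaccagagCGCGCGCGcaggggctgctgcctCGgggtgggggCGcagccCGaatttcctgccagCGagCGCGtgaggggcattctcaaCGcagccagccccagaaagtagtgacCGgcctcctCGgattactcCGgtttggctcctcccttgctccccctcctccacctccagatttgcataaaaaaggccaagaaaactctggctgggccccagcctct
Nkd1: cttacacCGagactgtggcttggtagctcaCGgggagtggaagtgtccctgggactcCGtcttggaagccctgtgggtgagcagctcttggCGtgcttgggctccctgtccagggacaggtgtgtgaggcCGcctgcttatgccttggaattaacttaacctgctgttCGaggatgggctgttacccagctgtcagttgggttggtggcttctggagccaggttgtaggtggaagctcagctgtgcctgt
Wif1: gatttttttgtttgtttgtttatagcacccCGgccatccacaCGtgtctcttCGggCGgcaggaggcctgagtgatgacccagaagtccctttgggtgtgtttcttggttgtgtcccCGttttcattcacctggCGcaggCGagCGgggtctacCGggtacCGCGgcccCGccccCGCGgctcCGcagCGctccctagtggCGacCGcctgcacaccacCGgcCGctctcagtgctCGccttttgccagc
*Sfrp2* had 16 CG dinucleotides and *Wif1* 21, and *Nkd1* had 6, equal to the median of 6 over 32851 such windows. Windows reaching 50 bases further were searched on both strands for the TCF/LEF motifs CTTTGAT and CTTTGAA and the GLI motif GACCACCCA. None of the 11 windows of the 8 members with a window held either kind. Over all windows, 8.65% held a TCF/LEF motif and 0.253% the GLI motif. At such shares 11 windows, of which some of *Lef1* overlap, are too few to read the absence as a trait of these genes. *Sfrp1* and *Dkk3* had no window.

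*Sfrp1* (chr8:23411383-23449632), a secreted Frizzled-related protein and, in the study's account, a SHH target, separated the Ptch1 models and GNPs from the other groups. Its levels were 10.96 and 10.32 in the EP tumours and 12.37 in the TF tumour. They were 14, 13.57, 12.77 and 13.25 in Ptc+/- tumours and 12.72, 12.47, 12.48, 12.43 and 12.19 in MERP tumours. GNPs read 11.55, 11.44 and 11.50. GTML tumours read only 5.5, 6.93, 5.03 and 5.53 and adult cerebella 6.64, 6.54, 6.22 and 6.42, and no array of these 2 groups reached any array of the other 4. *Sfrp1* was 44.2-fold higher in CRISPR-Ptch1 than in GTML tumours (log2 difference 5.47 ± 0.39 SE, limma adjusted p = 8.61e-10), 201-fold higher in Ptc+/- (7.65 ± 0.36, 7.36e-13) and 105-fold higher in MERP (6.71 ± 0.34, 2.45e-12). Among the Ptch1 models it was lower in CRISPR-Ptch1 than in Ptc+/- tumours (-2.18 ± 0.39, adjusted p = 0.000198), and Ptc+/- exceeded GNPs by 1.90 ± 0.39 (adjusted p = 0.000565). The deficit against Ptc+/- was -2.76 with the EP tumours alone and -1.03 with the single TF array. The excess of Ptc+/- over GNPs was lost in 1 alternative run, and its lowest value was 1.04. CRISPR-Ptch1 tumours and GNPs overlapped and did not pass the test (-0.28 ± 0.42, adjusted p = 0.749), nor did GTML and adult cerebellum (-0.71 ± 0.36, adjusted p = 0.107). Without GTML replicate 2, the highest of its group, GTML was called lower than adult cerebellum (-1.10, adjusted p = 0.00691). The sign of this difference depended on the probe set, with 0.80 for 1448395_at and 0.36 for 1438620_x_at, neither called.

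**Figure D1:**
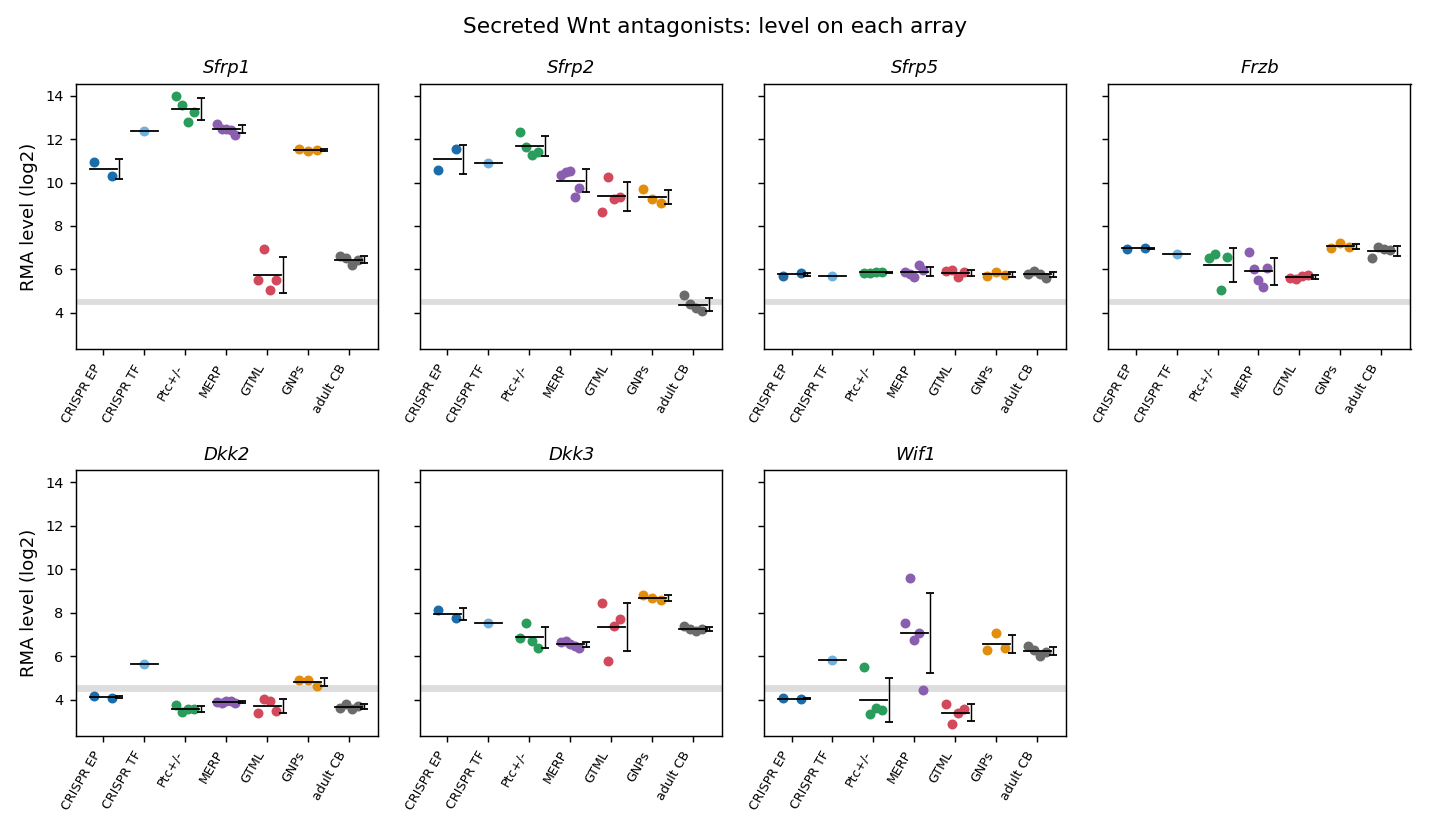
RMA log2 level (y axis) of the 7 secreted antagonists on each array, by group (x axis); points are arrays, horizontal lines group means, vertical bars the SD (none for the single TF array), and the grey band the range of the arrays' lower quartiles. *Sfrp1* is low in GTML and adult cerebellum, *Sfrp2* only in adult cerebellum, *Sfrp5* is flat, and *Wif1* spreads from 4.46 to 9.61 within MERP.

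The 5 probe sets of *Sfrp1* gave the same direction in the large differences and opposing ones within the CRISPR-Ptch1 group. All 5 were higher in CRISPR-Ptch1 than in GTML tumours, by 2.85 to 6.56, and all 5 were higher than in adult cerebellum, by 3.20 to 6.82. For 1460187_at these are lower limits, since it was near background on every GTML (2.96 to 3.62) and adult cerebellum array (3.71 to 4.13). Probe set 1428136_at, used above, read 10.96 and 10.32 in EP and 12.37 in TF, whereas 1448395_at read 12.18 and 11.92 in EP and 10.75 in TF. Against GNPs, 1448395_at and 1416594_at were called higher in CRISPR-Ptch1 tumours, by 1.81 ± 0.46 (adjusted p = 0.0128) and 1.49 ± 0.34 (adjusted p = 0.00602), while 1428136_at and 1460187_at had negative values that did not pass (-0.28 and -0.48). The order of CRISPR-Ptch1 tumours against GNPs and MERP tumours therefore depended on the probe set. The deficit against Ptc+/- tumours was called with 4 of the 5.

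**Figure D2:**
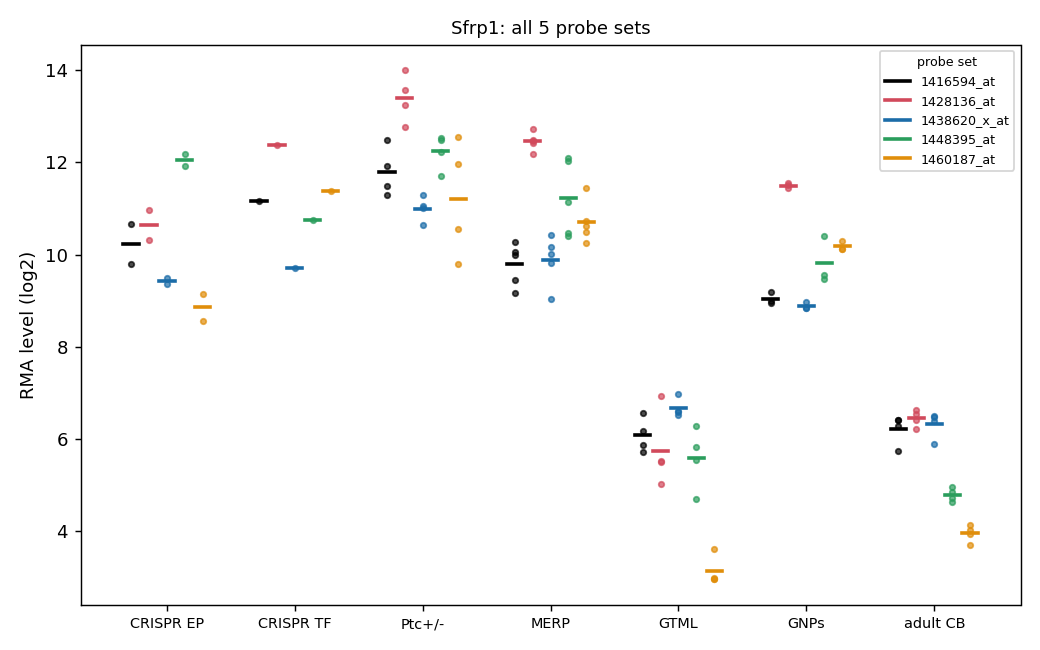
RMA log2 level (y axis) of each *Sfrp1* probe set (colours) by group (x axis); points are arrays and short lines group means. All 5 sets are lower in GTML and adult cerebellum than in the other groups, but 1448395_at is higher in EP than in TF where the other 4 are lower.

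*Sfrp2* (chr3:83765750-83774314), a close relative, was near background on 3 of the 4 adult cerebellum arrays and on no other array. Adult cerebella read 4.82, 4.39, 4.24 and 4.08. EP tumours read 10.58 and 11.55, the TF tumour 10.89, and Ptc+/- tumours 12.32, 11.64, 11.28 and 11.42. MERP tumours read 10.33, 10.48, 10.55, 9.34 and 9.74, GTML tumours 8.65, 10.25, 9.26 and 9.32, and GNPs 9.72, 9.23 and 9.08. Unlike *Sfrp1*, it was thus high in GTML tumours, at least 31.8-fold above adult cerebellum, where the level is a background reading (4.99 ± 0.32, limma adjusted p = 1.98e-11), and GTML tumours and GNPs overlapped (0.03 ± 0.35, adjusted p = 0.959). *Sfrp2* was higher than in GNPs in CRISPR-Ptch1 (1.66 ± 0.37, adjusted p = 0.00339) and Ptc+/- tumours (2.32 ± 0.35, adjusted p = 1.85e-05). The value for MERP was 0.74 ± 0.33 (adjusted p = 0.129). Ptc+/- exceeded MERP by 1.58 ± 0.30 (adjusted p = 0.000443).

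*Sfrp5* (chr19:42197971-42202252), the remaining family member, lay between 5.62 and 6.20 on all 23 arrays and was called in none of the 15 comparisons between the 6 groups. Its second probe set lay between 4.92 and 5.79. Only where the arrays were centred on the median of the gene table, described at the end of the results, was it called, in 6 comparisons.

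*Frzb* (chr2:80411970-80447396), which binds Wnt ligands through a Frizzled-like domain, differed less. It read 6.96, 6.97 and 6.73 in CRISPR-Ptch1 tumours, 6.98, 7.20 and 7.03 in GNPs and 6.51, 7.03, 6.95 and 6.89 in adult cerebella. GTML tumours read 5.62, 5.54, 5.68 and 5.75, below every array of these 3 groups. *Frzb* was lower in GTML than in CRISPR-Ptch1 tumours, GNPs and adult cerebellum, with GTML minus GNP at -1.43 ± 0.33 (limma adjusted p = 0.00134), GTML minus adult cerebellum at -1.20 ± 0.30 (adjusted p = 0.00186) and CRISPR-Ptch1 minus GTML at 1.24 ± 0.33 (adjusted p = 0.00489). MERP tumours ranged from 5.20 to 6.80 and were lower than GNPs (-1.16 ± 0.31, adjusted p = 0.0111). Ptc+/- tumours read 6.54, 6.73, 5.03 and 6.56. Their deficit against GNPs (-0.86 ± 0.33, adjusted p = 0.0427) was -0.46 without replicate 3 (adjusted p = 0.175). The second probe set of *Frzb* was near background in all 6 groups, with group means of 3.61 to 4.07.

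Of the Dickkopf genes, *Dkk3* (chr7:112116019-112159482), a divergent member whose action on Wnt signalling is less settled, was highest in GNPs at 8.81, 8.67 and 8.57. CRISPR-Ptch1 tumours read 8.13, 7.76 and 7.53, Ptc+/- 6.84, 7.55, 6.72 and 6.39, and MERP 6.63, 6.68, 6.57, 6.46 and 6.39. Adult cerebella read 7.40, 7.24, 7.17 and 7.23. No array of these 4 groups reached a GNP array, although the CRISPR-Ptch1 difference did not pass the test (-0.88 ± 0.40, limma adjusted p = 0.168). *Dkk3* was lower than in GNPs in Ptc+/- (-1.81 ± 0.37, adjusted p = 0.000562), MERP (-2.13 ± 0.36, adjusted p = 0.000125) and GTML tumours (-1.34 ± 0.37, adjusted p = 0.00619), and GNPs exceeded adult cerebellum by 1.42 ± 0.37 (adjusted p = 0.00282). GTML tumours varied most, at 8.44, 5.80, 7.40 and 7.72, and without their lowest array, replicate 2, they were called higher than Ptc+/- (difference Ptc+/- minus GTML -0.98, adjusted p = 0.00147) and MERP (-1.31, adjusted p = 6.46e-05). Its second probe set gave the same calls against GNPs, and it was also higher in Ptc+/- than in MERP (0.84 ± 0.29, adjusted p = 0.03).

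*Dkk2* (chr3:132085266-132180304), an LRP-binding member, was at or under the lower quartile on every array of Ptc+/-, MERP, GTML and adult cerebellum and on both EP arrays (4.17 and 4.09). Levels above it were read in the TF tumour (5.64) and in GNPs (4.92, 4.91 and 4.61). The differences from GNPs were -1.23 in Ptc+/-, -0.92 in MERP and -1.12 in GTML, and GNPs exceeded adult cerebellum by 1.13, all called, with limma adjusted p of at most 0.00692, and these sizes are lower limits. Taken alone, the EP tumours were lower than GNPs (-0.68, adjusted p = 0.00552), a lower limit since both EP arrays were near background. The value of the single TF array against GNPs was 0.83 (adjusted p = 0.0156, with its spread assumed to be that of the other groups).

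*Wif1* (chr10:121034004-121100642), which binds Wnt ligands through its WIF domain, spread further within MERP than any other member did in any group. MERP tumours read 7.53, 9.61, 6.74, 7.06 and 4.46, a range from near background to the highest level of all arrays. EP tumours read 4.06 and 4.04 and the TF tumour 5.83. Ptc+/- tumours read 5.49, 3.34, 3.63 and 3.52 and GTML tumours 3.79, 2.87, 3.40 and 3.55. GNPs read 6.27, 7.06 and 6.38, and adult cerebella 6.47, 6.28, 6.01 and 6.18. *Wif1* was near background on all 4 GTML, 3 of 4 Ptc+/- and both EP arrays, so that its deficits are lower limits. It was higher in MERP than in GTML tumours by 3.68 ± 0.66 (limma adjusted p = 0.000117) and lower in Ptc+/- than in MERP tumours (-3.09 ± 0.66, adjusted p = 0.00106). It was lower than in GNPs in Ptc+/- (-2.57 ± 0.75, adjusted p = 0.0089) and GTML (-3.17 ± 0.75, adjusted p = 0.00173). The value of CRISPR-Ptch1 against GNPs was -1.92 ± 0.80 (adjusted p = 0.126).

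Among the target genes, *Nkd1* (chr8:88521342-88594887), a feedback inhibitor that acts on Dishevelled, was high and low in the same groups as *Sfrp1*. It read 10.09 and 9.72 in EP and 11.77 in TF, 10.75, 10.22, 10.72 and 10.73 in Ptc+/-, 10.77, 10.21, 10.60, 9.96 and 10.56 in MERP and 9.95, 10.02 and 10.04 in GNPs. GTML tumours read 6.76, 6.27, 6.02 and 6.24 and adult cerebella 7.49, 7.64, 7.51 and 7.66, below all arrays of the other groups and with GTML below adult. *Nkd1* was 18.4-fold higher in CRISPR-Ptch1, 19.5-fold in Ptc+/- and 17.1-fold in MERP than in GTML tumours (log2 differences 4.21 ± 0.31, 4.28 ± 0.29 and 4.10 ± 0.28, limma adjusted p at most 1.54e-09). The CRISPR-Ptch1 value was 3.58 on the log2 scale without the TF array and 2.16 with the mean of the probe sets, both called. GTML was lower than adult cerebellum (-1.25 ± 0.29, adjusted p = 0.000887), but with the mean of its 4 probe sets the value was -0.39 (adjusted p = 0.0787). With this probe set, no difference between the 3 Ptch1 models or between them and GNPs passed the test, with values from -0.08 to 0.60. Probe set 1429507_at was called higher in CRISPR-Ptch1 than in Ptc+/- (0.41 ± 0.15, adjusted p = 0.0305) and lower in Ptc+/- than in MERP (-0.64 ± 0.13, adjusted p = 0.000577). The EP tumours alone were lower than Ptc+/- (-0.70, adjusted p = 0.0136). The single TF array lay above every array of the other groups, with values of 1.17 against Ptc+/-, 1.35 against MERP and 1.77 against GNPs. All 4 probe sets were called higher in CRISPR-Ptch1 than in GTML tumours, by 0.54 to 4.21. Over the 23 arrays *Nkd1* and *Sfrp1* had a Pearson r of 0.955, a description of arrays that fall into a high and a low block of groups.

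**Figure D3:**
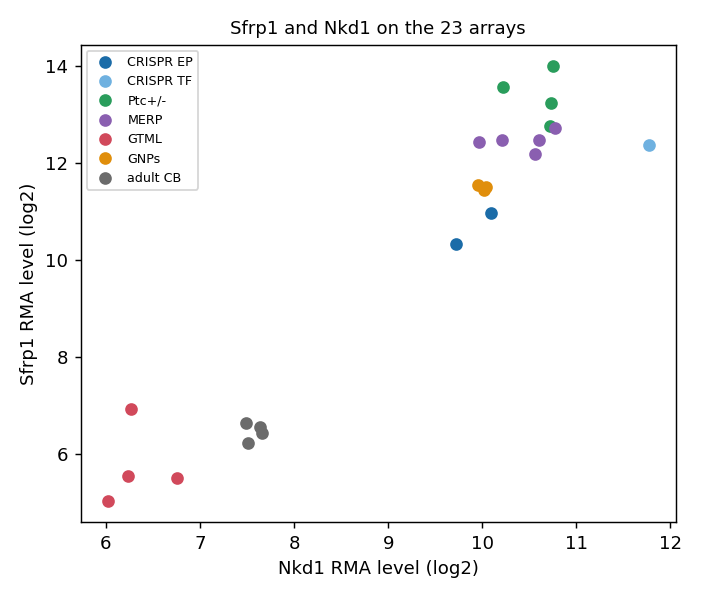
*Sfrp1* (y axis) against *Nkd1* (x axis), RMA log2 levels, 1 point per array coloured by group. The 8 arrays of GTML tumours and adult cerebella lie at *Nkd1* levels up to 7.66 and the other 15 at 9.72 or more.

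*Lef1* (chr3:131110297-131224357), a DNA-binding partner of β-catenin and itself a target, was highest in GNPs (*Nkd1* high) and in GTML tumours (*Nkd1* low). GTML tumours read 8.08, 8.10, 7.15 and 8.18 and GNPs 8.30, 7.75 and 8.0. Levels were 6.04, 6.47 and 6.54 in CRISPR-Ptch1, 5.74, 6.01, 6.16 and 6.06 in Ptc+/- and 6.04, 5.98, 5.5, 6.0 and 5.96 in MERP tumours, and 6.83, 6.66, 6.50 and 6.77 in adult cerebella. Every GTML and GNP array exceeded every array of the other 4 groups. *Lef1* was lower than in GNPs in CRISPR-Ptch1 (-1.66 ± 0.22, limma adjusted p = 1.52e-05), Ptc+/- (-2.02 ± 0.21, adjusted p = 1.68e-07) and MERP tumours (-2.12 ± 0.20, adjusted p = 5.57e-08), and GTML and GNPs overlapped (-0.14 ± 0.21, adjusted p = 0.632). It was also lower in Ptc+/- and MERP than in adult cerebellum (-0.70 ± 0.19, adjusted p = 0.00382, and -0.79 ± 0.18, adjusted p = 0.00076). The second probe set was below the lower quartile on all arrays but 3 of the 4 GTML arrays (4.62, 5.0 and 4.64), and it was called in 4 comparisons, all with GTML the higher group, among them CRISPR-Ptch1 below GTML (-0.62, adjusted p = 0.0192).

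*Axin2* (chr11:108917828-108950783), a scaffold of the β-catenin destruction complex and a widely used target of the canonical pathway, moved least of the called genes. GNPs read 8.71, 8.67 and 8.50, above every other array. CRISPR-Ptch1 tumours read 8.19, 8.14 and 8.07, Ptc+/- 7.49, 7.58, 8.09 and 8.08, MERP 8.0, 8.26, 8.24, 7.83 and 7.76, GTML 7.47, 7.56, 7.21 and 7.60, and adult cerebella 7.72, 7.70, 7.79 and 7.83. *Axin2* was lower than in GNPs in all 5 other groups, with differences of -0.49 ± 0.16 in CRISPR-Ptch1 (limma adjusted p = 0.0446), -0.82 ± 0.15 in Ptc+/- (adjusted p = 0.000191), -0.61 ± 0.14 in MERP (adjusted p = 0.00407) and -1.17 ± 0.15 in GTML (adjusted p = 2.28e-06), and with GNPs 0.87 ± 0.15 above adult cerebellum (adjusted p = 4.72e-05). The CRISPR-Ptch1 call was lost on leaving out any 1 of its 6 arrays (adjusted p from 0.0592 to 0.139). With arrays centred on the median of the gene table, the first 3 values were -0.43 (adjusted p = 0.151), -0.28 (adjusted p = 0.176) and -0.34 (adjusted p = 0.0975). Its second probe set was near background in all groups.

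**Figure D4:**
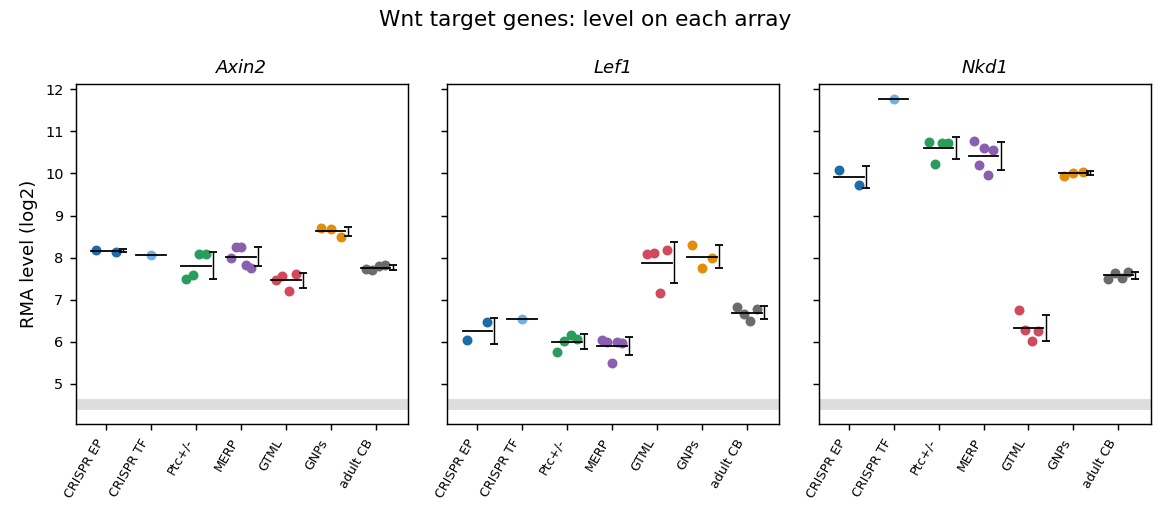
RMA log2 level (y axis) of the 3 target genes on each array, by group (x axis); points are arrays, horizontal lines group means, vertical bars the SD (none for the single TF array), and the grey band the range of the arrays' lower quartiles. *Nkd1* is low in GTML tumours and adult cerebellum, and *Lef1* is high in GTML tumours and GNPs.

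Counts of members against GNPs depended on the scaling. In Ptc+/- tumours 2 of 10 were higher and 6 lower than in GNPs, where 9.4% of all genes were called higher and 29.9% lower. In MERP tumours none was higher and 5 lower (all genes 7.12% and 12.1%), in GTML none higher and 7 lower (16.1% and 25.7%), and in CRISPR-Ptch1 1 higher and 2 lower (5.79% and 7.95%). With arrays centred on the median of the gene table, 4 were higher and 4 lower in Ptc+/-, 3 and 4 in MERP, 1 and 7 in GTML and 1 and 1 in CRISPR-Ptch1. The shares of all genes above belong to the uncentred fit and cannot be set beside these counts. With the centring, the share of higher among all called genes moved from 23.9% to 80.5% in Ptc+/- and from 37.1% to 79% in MERP. It moved from 38.6% to 78.2% in GTML and from 42.1% to 51.4% in CRISPR-Ptch1. Beside the deficits against GNPs stand the higher meningeal, vascular and choroid plexus markers of the GNP arrays, whose part was not tested. GNPs against adult cerebellum had 7 members higher and none lower (29.1% and 21% of all genes).

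**Figure D5:**
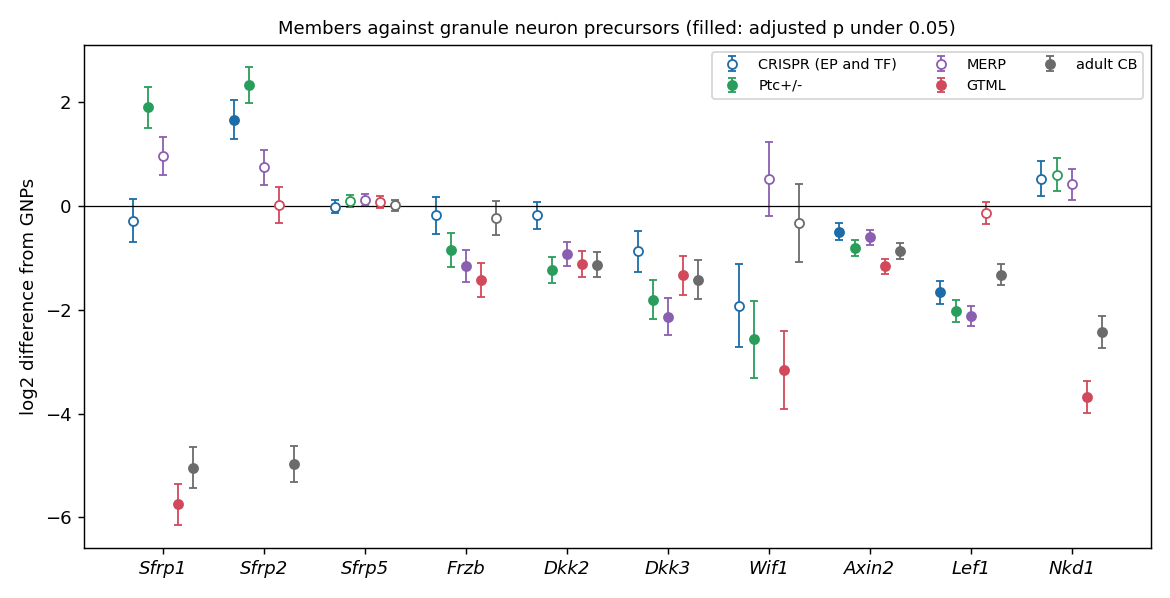
Log2 difference from GNPs (y axis) of each member (x axis) in the 5 other groups (colours); bars are the SE and filled points have an adjusted p under 0.05. *Sfrp1* and *Sfrp2* reach furthest, and *Axin2* is below 0 in all 5 groups.

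Against adult cerebellum, 5 members were higher and none lower in CRISPR-Ptch1 tumours (26.4% and 21.1% of all genes), 3 higher and 2 lower in Ptc+/- (22.4% and 30.8%), 3 and 2 in MERP (30.8% and 24.9%) and 2 and 3 in GTML (27.3% and 27.9%). *Sfrp2* was higher than in adult cerebellum in all 4 tumour groups, and *Sfrp1* and *Nkd1* were higher in the 3 Ptch1 models. Against GTML tumours, 6 members were higher and 1 lower in CRISPR-Ptch1 (22.7% and 14.1%), 4 and 1 in Ptc+/- (16.6% and 27.1%) and 4 and 1 in MERP (23.4% and 15.8%), and in each case *Lef1* was the lower one.

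Between the Ptch1 models, 2 to 5 members were called. CRISPR-Ptch1 tumours had *Dkk2* higher (1.05 ± 0.25, limma adjusted p = 0.00194) and *Sfrp1* lower than Ptc+/- (28.5% and 8.33% of all genes). With the EP tumours alone, where both groups lay near background, the *Dkk2* difference was 0.55 (adjusted p = 0.00841). The *Dkk2* call was lost with arrays centred on the median of the gene table (0.57, adjusted p = 0.073). It was also lost with only the 2 groups fitted (1.05, adjusted p = 0.0579). Against MERP, *Frzb*, *Dkk2* and *Dkk3* were higher and *Sfrp1* and *Wif1* lower in CRISPR-Ptch1 (8.2% and 5.15%). Their adjusted p-values were 0.0239 to 0.0439, and leaving out 1 array left between 1 and 3 members called. In the same comparison 8 of 8 microglial, 6 of 7 Purkinje cell and 5 of 8 oligodendrocyte markers were higher in CRISPR-Ptch1 (medians 1.68, 4.27 and 1.48), and against Ptc+/- 8 of 8, 7 of 7 and 4 of 8 (2.09, 4.04 and 1.34). Their part in the members' differences was not tested. Ptc+/- exceeded MERP in *Sfrp1* (0.94 ± 0.34, adjusted p = 0.0415) and *Sfrp2* and was lower in *Wif1* (6.08% and 25.9%). The *Sfrp1* call was lost on leaving out 7 of the 9 arrays in turn (adjusted p up to 0.133) and with the most variable probe set (0.51, adjusted p = 0.455). EP tumours differed from the TF tumour in *Dkk2* (-1.51 ± 0.22, adjusted p = 0.000615) and *Nkd1* (-1.87 ± 0.30, adjusted p = 0.00144), both lower in EP, and no member was higher (0.83% of all genes lower, 1.66% higher). This test rests on 1 TF array, assumed to vary like the other groups, and *Nkd1* probe set 1429507_at went the other way without passing (0.22 ± 0.23, adjusted p = 0.91).

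The rest of the pathway was read from lists of other Wnt genes. Of 21 ligands and ligand-processing genes, 3 were higher and 8 lower in GTML than in GNPs, with a median log2 difference of -0.08 against -0.02 over all genes. In that comparison 16.1% of all genes were higher and 25.7% lower. *Wnt5a*, a ligand of the non-canonical branches, was lower than in GNPs in CRISPR-Ptch1 (-2.34 ± 0.40, limma adjusted p = 0.00024), Ptc+/- (-4.40 ± 0.37, adjusted p = 9.89e-09), MERP (-3.10 ± 0.35, adjusted p = 8.95e-07) and GTML tumours (-4.98 ± 0.37, adjusted p = 8.71e-10). *Wnt4* was higher than in GNPs in MERP (1.78 ± 0.45, adjusted p = 0.0062) and lower in GTML tumours (-1.74 ± 0.47, adjusted p = 0.00483). Of 22 receptors, co-receptors and R-spondins, 2 were higher and 10 lower in GTML than in GNPs (median -0.29, all genes 16.1% higher and 25.7% lower). The lower ones were led by *Fzd7* (-4.84 ± 0.25, adjusted p = 4.72e-12) and *Ror2* (-4.26 ± 0.19, adjusted p = 4.06e-13), a non-canonical Wnt receptor. *Fzd6* was lower than in GNPs in all 3 Ptch1 models (-2.08 in CRISPR-Ptch1, -3.28 in Ptc+/- and -3.05 in MERP). The part of the higher meningeal, vascular and choroid plexus markers of GNP arrays in these deficits was not tested.

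Of 14 other antagonists and negative regulators measured, CRISPR-Ptch1, Ptc+/- and MERP tumours had 5, 4 and 5 higher than GTML and 1 lower each. Of all genes, 22.7%, 16.6% and 23.4% were higher and 14.1%, 27.1% and 15.8% lower. *Draxin*, a secreted protein that also guides axons, led with 4.72, 5.47 and 5.03, and *Apcdd1*, a membrane inhibitor of Wnt signalling, followed with 3.77, 4.0 and 4.11. *Sostdc1*, a secreted inhibitor of BMP and Wnt signals, was lower than in GNPs in CRISPR-Ptch1, Ptc+/-, MERP and GTML tumours (-3.8, -3.38, -4.46 and -4.4), with adjusted p of at most 0.000234. Its lowest arrays in these groups read 4.37, 4.27, 3.94 and 4.07, near background, and its highest 6.86, 6.92, 5.28 and 5.99. These sizes are lower limits only as far as arrays near background enter them. GNP arrays also had the highest choroid plexus, meningeal and vascular markers, whose part here was not tested. Of 23 intracellular genes, 12, 8 and 12 were higher in the 3 Ptch1 models than in GTML and 1, 3 and 3 lower, beside the same shares of all genes. Their medians were 0.40, 0.33 and 0.39 against 0.01, -0.09 and 0.04 over all genes. *Tle2*, a co-repressor, was among the named ones in each (2.17, 3.41 and 2.57).

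Of 9 other target genes, 6 were lower and 2 higher in GTML than in GNPs (median -1.23, all genes -0.02), and 4 were lower and 1 higher in each Ptch1 model. Of all genes, 25.7% were lower and 16.1% higher in GTML. The shares were 7.95% and 5.79% in CRISPR-Ptch1, 29.9% and 9.4% in Ptc+/-, and 12.1% and 7.12% in MERP. *Sp5*, a transcription factor induced by β-catenin, was lower than in GNPs in CRISPR-Ptch1 (-3.00 ± 0.38), Ptc+/- (-3.95 ± 0.36), MERP (-3.12 ± 0.34) and GTML tumours (-2.99 ± 0.36). Here too the part of the other cell markers of GNP arrays was not tested. *Nkd2*, the relative of *Nkd1*, was higher in GTML than in GNPs (2.65 ± 0.18, adjusted p = 1.91e-10) and than in the Ptch1 models, whose differences from GTML were -3.49 in CRISPR-Ptch1, -3.81 in Ptc+/- and -3.60 in MERP. *Nkd1* and *Nkd2* thus differed in opposite directions in GTML. *Myc* was the 1 target higher than in GNPs in the Ptch1 models (1.60, 1.89 and 1.63) and was lower in GTML (-1.83). As a comparison, 9 of 9 measured hedgehog pathway genes were lower in GTML than in GNPs (median -2.40, all genes 25.7% lower), with *Gli1* at -4.66 ± 0.24. That list includes *Ptch1* and *Mycn*, the gene overexpressed in GTML tumours, and mixes activators with negative regulators of the pathway.

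The genes whose levels over the 23 arrays were most like a member's, by Pearson r, were *Pald1* and *Gjc1* (0.978 each) and *Ngfr* (0.973) for *Sfrp1*, and *E130114P18Rik* and *Sncaip* (0.973 each) and *Gli1* (0.971) for *Nkd1*. For *Sfrp2* they were *Ncapg2* (0.966), *Cecr2* (0.956) and *Sh3bp2* (0.954), and for *Lef1* *Egflam* (0.96), *St6gal2* (0.93) and *Fat4* (0.928). The nearest genes were less alike for *Axin2* (*Il17rd*, 0.884, *Zfp423*, 0.877, and *Vat1*, 0.869) and *Frzb* (*Orai1*, 0.868, *Cdh10*, 0.865, and *Plat*, 0.861). For *Dkk2* (*Ccdc102a*, 0.843), *Dkk3* (*Trim25*, 0.838), *Wif1* (*Gm11681*, 0.815) and *Sfrp5* (*Phf8-ps*, 0.814) the highest r was lower still. The arrays share groups, so these values describe likeness across groups.

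Of the 160 member differences, 79 were called, and 55 of these were called in every alternative run that could give them a value. Over the same comparisons, 1.66% to 30.8% of all genes were called higher and 0.83% to 30.8% lower. The count of 79 by itself is therefore not a result about these genes. Median levels of the gene table differed between groups, from 7.04 in Ptc+/- to 7.58 in GNPs. Centring each array on this median shifted differences by -0.48 (CRISPR-Ptch1 against Ptc+/-) to 0.54 (Ptc+/- against GNPs). It ended 11 calls, added 12 and turned the sign of no called difference. The share of higher among all called genes moved from 77.4% to 20.7% for CRISPR-Ptch1 against Ptc+/- and from 23.9% to 80.5% for Ptc+/- against GNPs, so that shares of higher and lower genes rest on the scaling.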

How the data were processed

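RNA of 23 samples was measured on Affymetrix whole-genome arrays for the mouse. The deposited values are log2 levels that the authors computed with Affymetrix Expression Console 1.3.1 by RMA, and which arrays were normalised together is not given in the sources used here. Values were used as deposited (0 missing), and all columns entered. Probe sets annotated to 1 gene (34958 of 45101) gave 18194 genes, 34754 of these probe sets matched by Entrez identifier. Precision is set by how few arrays a group has.

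The means of 6 groups were estimated on all genes by linear models with moderated variances (limma 3.58.1, R 4.3.3), with Benjamini-Hochberg adjustment over all genes of each of the 15 comparisons. A fit of 7 groups compared EP with TF, and a fit of all probe sets compared probe sets. Fits were tested on simulated data. The labels do not say that arrays of a group come from separate animals beyond naming separate samples, so p-values measure the spread between these samples. Arrays with the same replicate number in other groups did not deviate together (r from -0.28 to 0.23 over 46 pairs), and no batch is given in the labels. No 2 arrays of a group held the same values (largest r 0.998). Members, gene lists and alternatives were chosen with earlier results of these data known. All members are named. Of each pathway list, at most the 4 called genes with the largest difference in a comparison, and for each member the 3 most alike genes, could be named. Windows came from RefSeq (GRCm38.p6), with 8 of 10 members matched. Python 3.11.15 with numpy 2.4.6 and pandas 2.3.3 made the summaries. Alternatives were other centring, quantile normalisation, other probe sets, dim genes left out, array weights, a robust variance trend, fitting the compared groups by themselves, EP or TF alone, a replicate block and leaving out each array.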

Additional observations from a re-analysis of the deposited data

Results flagged for a closer look

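Of 40 gene and group pairs with 4 or 5 arrays, 5 had 1 array far from the others of its group by Dixon's criterion, which chance flags in about 1 of 20 groups. In Ptc+/- tumours, *Frzb* was 5.03 in replicate 3 against 6.54 to 6.73 in the others. *Wif1* was 5.49 in Ptc+/- replicate 1 against 3.34 to 3.63. *Nkd1* was 10.22 in Ptc+/- replicate 2 against 10.72 to 10.75. *Lef1* was 5.5 in MERP replicate 3 against 5.96 to 6.04, and 7.15 in GTML replicate 3 against 8.08 to 8.18.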

How the results depend on the processing

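Of the 79 called member differences, 24 were lost in at least 1 alternative, and *Axin2* against adult cerebellum and *Frzb* against MERP in CRISPR-Ptch1 tumours were lost most often, in 15 and 14. With the TF tumour alone, 2 differences took the opposite sign and passed, *Nkd1* of CRISPR-Ptch1 against Ptc+/- (1.17, adjusted p = 0.00507, from -0.08) and *Dkk2* against GNPs (0.83, adjusted p = 0.0156, from -0.18). These rest on 1 array, whose spread is assumed to be that of the other groups. With EP tumours alone these were -0.70 and -0.68. The count of members called between CRISPR-Ptch1 and MERP tumours fell from 5 to 3 with centring on either median, quantile normalisation or EP alone, to 2 with TF alone or the replicate block, to 1 with only these groups fitted, and to between 1 and 3 on leaving out 1 array. For CRISPR-Ptch1 against Ptc+/- it went from 2 to 4 with centring on all probe sets and to 6 with array weights, which were fitted with a convergence warning. Against GNPs it went from 3 to 7 with array weights and to 5 with only the 2 groups, and against adult cerebellum from 5 to 8 with array weights, both for CRISPR-Ptch1 and for MERP. Array weights added 22 member calls in all and ended 1. Shares of all genes called under these alternatives are not given here, so the changed counts are not read as results about the members. Replicate numbers do not pair the samples, and the replicate block ended 9 calls and added 9. The causes were not tested. *Sfrp1* of CRISPR-Ptch1 against MERP (-1.24) was -0.29 with the mean of its probe sets (adjusted p = 0.521) and -1.0 with the most variable one (adjusted p = 0.209). Leaving out dim genes kept the 12860 genes above 6.09 on at least 3 arrays, without *Sfrp5* and *Dkk2*. Values called in neither setting that changed sign, between 0 and 13 per alternative, were not counted as turned. No detection calls are given, and depth does not apply to arrays, so levels near the lower quartile set the limit.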
